A study of Mus musculus with 2 samples.

Results

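The 46 mitosis and cytokinesis genes were listed by name and role, and the rule uses no threshold on a measured value. They were read in the raw matrices of 2 single-cell libraries, which hold 32285 genes, and all 46 symbols were present exactly 1 time. Levels were compared across groups of cells set by UMIs of other genes, namely S-phase MuSCs (high in replication-dependent histones), G2/M MuSCs, non-cycling MuSCs, Myog cells, myocytes, Pdgfra cells and Lrrc15 fibroblasts, and between the libraries.

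The study asked whether muscle stem cells (MuSCs) divide before they differentiate when the plantaris muscle grows. Sham and MOV (mechanical overload by removal of synergist muscle) gave 1 library each, from Pax7rtTA; TRE-H2B-GFP mice 26 weeks of age, 5 days after surgery. Both groups carried the transgenes and had drunk doxycycline at 2.0 mg/ml, and the Pax7 locus drives the transactivator, so that a green histone label is laid down in Pax7-expressing cells. The methods describe a sort of VCAM+, CD31-, CD45- and SCA1- cells, the design text names the GFP signal, the labels speak of a single mouse where the methods describe several, and no source used here ties a cell to an animal.

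Before mitosis, cyclins A and B activate CDK1, the kinase that drives chromosome condensation and spindle assembly, and Aurora and Polo-like kinases act beside it. The spindle assembly checkpoint then holds back the anaphase-promoting complex until every kinetochore is attached, after which the central spindle directs the contractile ring that separates the daughter cells. MuSCs rest outside the cycle in uninjured muscle and divide on activation, whereas committed myocytes and fibre nuclei are post-mitotic.

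Many of these genes share promoter elements, and the following promoters are shown because their genes stand at the ends of the patterns described further on. Each runs from 250 bases before to 50 bases after the start of the gene, 5′ to 3′ on the strand of the gene, from RefSeq on GRCm38.p6. Capitals mark every match, on either strand, to the cell cycle genes homology region (CHR, TTTGAA or TTTAAA) and to the CCAAT box (CCAAT). Cdc20 lies at chr4:118437294-118437593 (minus strand), Ccnb1 at chr13:100786437-100786736 (minus strand), Mki67 at chr7:135716330-135716629 (minus strand), Top2a at chr11:99024140-99024439 (minus strand), Nusap1 at chr2:119618048-119618347 (plus strand) and Gas2l3 at chr10:89443918-89444217 (minus strand).
Cdc20: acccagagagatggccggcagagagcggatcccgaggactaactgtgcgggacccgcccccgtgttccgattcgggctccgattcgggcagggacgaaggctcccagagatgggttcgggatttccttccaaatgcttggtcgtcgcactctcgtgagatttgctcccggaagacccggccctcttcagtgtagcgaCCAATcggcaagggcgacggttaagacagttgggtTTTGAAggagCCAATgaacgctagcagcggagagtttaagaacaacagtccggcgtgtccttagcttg
Ccnb1: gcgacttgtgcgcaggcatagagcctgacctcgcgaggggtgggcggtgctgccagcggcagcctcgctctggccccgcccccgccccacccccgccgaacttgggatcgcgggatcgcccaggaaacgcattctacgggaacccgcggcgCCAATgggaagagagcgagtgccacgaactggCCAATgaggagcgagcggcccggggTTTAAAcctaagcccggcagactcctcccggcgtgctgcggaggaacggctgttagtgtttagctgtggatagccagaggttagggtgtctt
Mki67: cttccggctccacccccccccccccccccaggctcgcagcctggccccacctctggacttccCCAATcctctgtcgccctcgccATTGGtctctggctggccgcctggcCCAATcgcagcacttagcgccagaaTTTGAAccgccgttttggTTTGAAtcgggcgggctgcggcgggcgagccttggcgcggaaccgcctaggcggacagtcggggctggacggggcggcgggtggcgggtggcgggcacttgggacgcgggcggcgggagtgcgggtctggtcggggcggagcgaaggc
Top2a: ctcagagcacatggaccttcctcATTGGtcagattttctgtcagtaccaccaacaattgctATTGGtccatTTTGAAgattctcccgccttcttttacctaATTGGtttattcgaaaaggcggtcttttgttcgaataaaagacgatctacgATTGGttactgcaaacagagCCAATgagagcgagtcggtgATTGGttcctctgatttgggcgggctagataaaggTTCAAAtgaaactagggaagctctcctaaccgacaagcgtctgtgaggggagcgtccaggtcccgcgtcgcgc
Nusap1: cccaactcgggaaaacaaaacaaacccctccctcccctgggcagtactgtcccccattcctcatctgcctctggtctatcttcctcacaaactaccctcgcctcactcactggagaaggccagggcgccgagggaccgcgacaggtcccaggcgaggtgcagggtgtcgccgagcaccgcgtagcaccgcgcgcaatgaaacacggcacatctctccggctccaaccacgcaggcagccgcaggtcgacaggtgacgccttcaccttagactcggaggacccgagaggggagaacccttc
Gas2l3: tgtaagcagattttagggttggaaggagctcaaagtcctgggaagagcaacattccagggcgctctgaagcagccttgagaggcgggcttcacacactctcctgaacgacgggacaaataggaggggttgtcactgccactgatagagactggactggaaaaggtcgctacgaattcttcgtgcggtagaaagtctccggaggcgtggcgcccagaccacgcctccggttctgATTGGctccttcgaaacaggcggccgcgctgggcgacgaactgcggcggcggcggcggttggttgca

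Cdc20, Ccnb1, Mki67 and Top2a each held a CHR and a CCAAT box. Gas2l3 held a CCAAT box alone, and Nusap1 held neither set of letters. A promoter was matched for 38 of the 46 genes (none for Ccna2, Cdc25c, Pbk, Aurkb, Incenp, Tpx2, Smc4 and Kif20a). Of these 38, 32 (84.2%) held a CHR, against 30.6% of the 27025 genes with a promoter in the same table, and 31 (81.6%) held a CCAAT box against 41.1%. Both were present in 28 (73.7%) against 12.2%. TTTGAA accounted for more of the CHR matches than TTTAAA, with 29 promoters against 10, and the shares over all genes were 20.2% and 14.9%. Mad2l1, Nuf2 and Nusap1 held neither element, Bub1, Gas2l3 and Nek2 held CCAAT alone, and Anln, Birc5, Kif2c and Ndc80 held a CHR alone. A match describes the letters and does not show that a factor binds there.

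In total, 7302661 UMIs came from 1100 sham cells and 88498487 UMIs from 3854 MOV cells. After cells with 10% or more mitochondrial UMIs or under 1000 UMIs were removed, 675 sham cells (median 5866 UMIs) and 2854 MOV cells (median 23466.5 UMIs) were kept. The libraries shared 44 cell barcodes, found in sham cells with a median of 28980.5 UMIs and in MOV cells with a median of 689.5, and of these cells 38 in sham and 16 in MOV were kept. With 1 library per condition there is no replicate check, so no test was made, and every interval (95%) covers counting error only. Levels are UMIs of a gene per 1000000 UMIs of the group (CPM), each UMI marking a captured transcript at its 3′ end, and a gene was called higher or lower at 2-fold or more with at least 20 UMIs in the 2 groups together. Fewer transcripts per cell and fewer cells that express a gene cannot be told apart in such sums.

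The groups carried their defining markers. In MOV non-cycling MuSCs, Pax7 stood at 100.3 CPM, Myf5 at 206 CPM and Myod1 at 118 CPM, whereas Pdgfra cells held 0.491 CPM of Pax7 and 164 CPM of Pdgfra. Myog reached 1138 CPM in Myog cells and 2852 CPM in myocytes, and Lrrc15 203 CPM in Lrrc15 fibroblasts. Ptprc, the pan-leukocyte antigen, stayed at or under 0.736 CPM in each of the MOV groups of MuSCs, myogenic cells, Pdgfra cells and Lrrc15 fibroblasts. Markers of other types were not at 0 in MuSCs. The summed Pdgfra-cell markers were at 1005 CPM in MOV non-cycling, 680 CPM in S-phase and 526 CPM in G2/M MuSCs, against 20825 CPM in Pdgfra cells, and their part in the levels that follow was not tested.

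Summed over the 46 genes, the level in the MOV library was 469 CPM (459 to 479) in 836 non-cycling MuSCs, 6744 CPM (6697 to 6793) in 276 S-phase MuSCs and 8903 CPM (8854 to 8952) in 297 G2/M MuSCs. Single cells spread widely within a group. In non-cycling MuSCs the 10th percentile, median and 90th percentile were 72.4, 276 and 916 CPM, and in G2/M MuSCs 4666, 8810 and 15921 CPM. A median non-cycling cell showed 4 of the 46 genes, a median S-phase cell 39 and a median G2/M cell 43. The groups were set by histones and by 32 other G2/M genes, which belong to the same phases, so that higher levels in the cycling groups describe how far these 46 genes follow those markers.

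**Figure D1:**
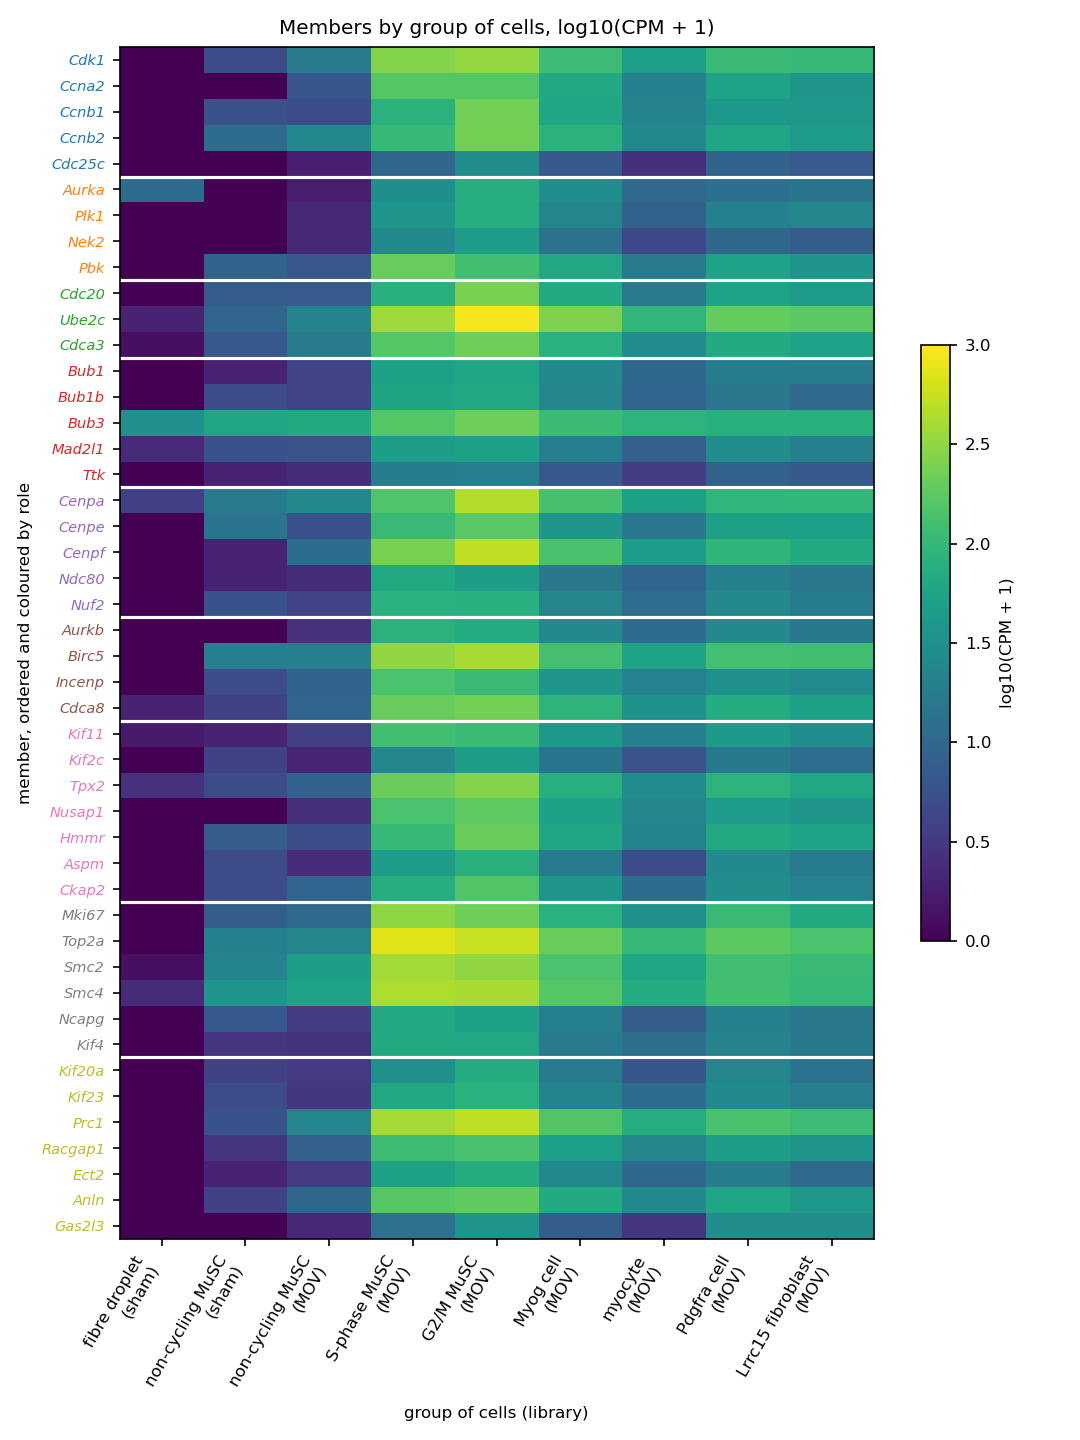
Level of each of the 46 genes as log10(CPM + 1) by color, in 9 groups of cells from the sham and MOV libraries, with genes ordered and colored by role. S-phase and G2/M MuSCs are the brightest columns, Bub3 keeps a visible level in every column, and Aurka is present in sham fibre droplets but not in sham non-cycling MuSCs.

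All 46 genes were higher in G2/M than in non-cycling MuSCs, where 7.05% of the 12477 genes tested were called higher and 7.93% lower. The median log2 ratio over the 46 was 4.83, against -0.04 over all genes tested, and the range ran from 1.74 for Bub3 to 6.77 for Nusap1. All 46 were also higher in S-phase than in non-cycling MuSCs (7.67% of 12356 genes called higher and 6.74% lower), with a median log2 ratio of 4.37 and a range from 1.31 for Bub3 to 6.43 for Nusap1. Between the cycling groups the differences were smaller. Histones took precedence in setting these groups, so S-phase MuSCs could also meet the G2/M limit of 12 marker UMIs per 10000. Of the 276 S-phase MuSCs, 53 were under it, 100 held 12 to 20 and 123 held 20 or more. The comparison thus sets histone-high against histone-low cells, most of which met that limit in both groups. Relative to S-phase MuSCs, 13 of the 46 were higher in G2/M MuSCs, against 2.32% of 12060 genes, and none was lower, against 2.85%, with a median log2 ratio of 0.36.

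The 5 cyclins and regulators of CDK1 had a median log2 ratio of 4.90 for G2/M over non-cycling MuSCs. Cdk1, the kinase itself, stood at 16.1 CPM in non-cycling, 275 CPM in S-phase and 324 CPM in G2/M MuSCs, a log2 ratio of 4.33 (4.16 to 4.51) for G2/M over non-cycling cells. Ccna2, which encodes the cyclin active from S phase until prometaphase, stood at 5.40, 161 and 161 CPM in the same order and so did not differ between S-phase and G2/M MuSCs (log2 ratio 0.00, -0.09 to 0.09). The B-type cyclins, partners of CDK1 in mitosis, were both higher in G2/M. Ccnb1 went from 4.06 CPM in non-cycling to 83.8 CPM in S-phase and 230 CPM in G2/M MuSCs (G2/M over S-phase 1.46, 1.35 to 1.56). Ccnb2 had a higher level outside the cycle, 24.03 CPM, with 99.9 CPM in S-phase and 235 CPM in G2/M MuSCs, and its log2 ratio of 3.29 (3.14 to 3.44) for G2/M over non-cycling cells was the lowest of this role. Cdc25c, the phosphatase that removes the inhibitory phosphates of CDK1, was scarce at 0.813, 9.14 and 28.3 CPM, and it had the largest G2/M over S-phase ratio of the 46 (1.63, 1.31 to 1.96).

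Among the mitotic kinases, Aurka, which matures the spindle poles, had the lowest level of the 46 in non-cycling MuSCs (0.697 CPM) and reached 29.9 CPM in S-phase and 72.9 CPM in G2/M MuSCs. Its log2 ratio of 6.71 (5.90 to 7.67) for G2/M over non-cycling cells was second only to that of Nusap1. Plk1, needed for mitotic entry and spindle formation, was at 1.22, 36.5 and 73.8 CPM in non-cycling, S-phase and G2/M MuSCs. Nek2, a centrosome-splitting kinase, was at 1.22, 25.3 and 45.8 CPM. Pbk, a mitotic kinase of the MAPK kinase type, took the opposite course between the cycling groups, with 5.51 CPM in non-cycling, 201 CPM in S-phase and 121 CPM in G2/M MuSCs. Its log2 ratio of -0.73 (-0.82 to -0.64) for G2/M over S-phase was the lowest of the 46, though short of 2-fold.

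The ubiquitin ligase cofactors held the member with the highest level in G2/M MuSCs. Ube2c, the conjugating enzyme of the anaphase-promoting complex, was at 20.96 CPM in non-cycling, 360 CPM in S-phase and 920 CPM in G2/M MuSCs, and it made up 10.3% of the UMIs of the 46 genes in G2/M MuSCs. Cdc20, the co-activator of that complex which the checkpoint blocks, was at 6.44, 79.1 and 244 CPM, with a G2/M over S-phase ratio of 1.62 (1.52 to 1.73). Cdca3, which works with an SCF ligase at mitotic entry, was at 16.02, 163 and 217 CPM, and its log2 ratio of 3.76 (3.58 to 3.94) for G2/M over non-cycling cells was the lowest of the 3 cofactors.

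The 5 spindle assembly checkpoint genes had the lowest median log2 ratio of the 9 roles for G2/M over non-cycling MuSCs, 3.73, and none of them was called between G2/M and S-phase MuSCs. Bub3, the checkpoint protein that docks at kinetochores, had the highest level of the 46 outside the cycle, 65.3 CPM, with 162 CPM in S-phase and 218 CPM in G2/M MuSCs (G2/M over non-cycling 1.74, 1.64 to 1.84). Bub1b, which encodes BUBR1, was at 3.02, 56.1 and 63.5 CPM (4.39, 3.99 to 4.83). Bub1, a checkpoint kinase, was at 2.96, 50.7 and 59.3 CPM, and Mad2l1, which binds and inhibits CDC20, at 4.99, 47.2 and 51.7 CPM. Ttk, the kinase that starts checkpoint signaling, was the scarcest of the 46 in G2/M MuSCs at 18.4 CPM, with 1.39 CPM in non-cycling and 17.6 CPM in S-phase MuSCs.

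At the centromere and kinetochore, Cenpf and Cenpa were called higher in G2/M than in S-phase MuSCs, whereas Ndc80 and Nuf2 were not. Cenpf, a large kinetochore and nuclear matrix protein, was at 10.4 CPM in non-cycling, 242 CPM in S-phase and 521 CPM in G2/M MuSCs. Cenpa, the histone H3 variant of centromeres, was at 24.4, 149 and 447 CPM, a G2/M over S-phase ratio of 1.59 (1.51 to 1.67), and its G2/M over non-cycling ratio of 4.2 (4.05 to 4.34) was the lowest of the role. Cenpe, a kinetochore motor, was at 4.70, 103 and 169 CPM. Ndc80 and Nuf2 are subunits of the complex that grips microtubules, and neither had its higher level in G2/M, with 66.0 and 81.6 CPM in S-phase against 46.7 and 78.4 CPM in G2/M MuSCs.

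The chromosomal passenger complex showed no called difference between S-phase and G2/M MuSCs, which were separated by histones and mostly met the G2/M-marker limit in both groups. Aurkb, its kinase, was at 1.68 CPM in non-cycling, 84.2 CPM in S-phase and 68.2 CPM in G2/M MuSCs (G2/M over S-phase -0.31, -0.44 to -0.17). Incenp, its scaffold, was at 7.78, 142 and 103 CPM (-0.47, -0.57 to -0.36). The targeting subunits lay on the other side, since Birc5 (survivin) was at 18.5, 315 and 400.4 CPM and Cdca8 (borealin) at 8.48, 199.7 and 230 CPM, with log2 ratios of 0.34 and 0.21.

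Of the 7 spindle motors and microtubule binders, Nusap1, which bundles spindle microtubules near chromosomes, had the largest G2/M over non-cycling ratio of the 46 (6.77, 6.23 to 7.36), from 1.63 CPM in non-cycling to 140 CPM in S-phase and 177 CPM in G2/M MuSCs. Ckap2, a microtubule-stabilizing protein, had the smallest of this role (4.17, 3.93 to 4.42), with 8.59, 73.0 and 154 CPM. Ckap2 and Hmmr, a spindle-pole protein, were called higher in G2/M than in S-phase MuSCs with log2 ratios of 1.08 and 1.06. Kif2c, a depolymerizing kinesin, lay just under 2-fold at 0.98, and Plk1 just over it at 1.02. Aspm, a spindle-pole scaffold, Tpx2, an activator of Aurora A, and Kif11, the motor that separates the poles, followed with 0.82, 0.43 and -0.14.

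All 6 chromosome structure genes had their higher level in S-phase MuSCs, and none by 2-fold, with the direction of Kif4 turning when the cycling limits were doubled. Top2a, the topoisomerase that untangles sister DNA, led the 46 in S-phase MuSCs with 712 CPM, or 10.6% of their UMIs, against 22.3 CPM in non-cycling and 563 CPM in G2/M MuSCs (G2/M over S-phase -0.34, -0.38 to -0.29). Mki67, which coats mitotic chromosomes and is widely used as a proliferation marker, was at 9.69, 309 and 215 CPM (-0.53, -0.60 to -0.46). The condensin subunits Smc2 and Smc4 had the highest levels outside the cycle after Bub3, 45.7 and 53.1 CPM, and Smc2 had the lowest G2/M over non-cycling ratio of the role (2.79, 2.68 to 2.90), with 386 CPM in S-phase and 317 CPM in G2/M MuSCs. Ncapg, a subunit of condensin I, was at 63.8 CPM in S-phase and 50.7 CPM in G2/M MuSCs, and the chromokinesin Kif4 differed between them by a log2 ratio of -0.11 (-0.25 to 0.03).

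The 7 central spindle and cytokinesis genes had their higher level in G2/M MuSCs, and Gas2l3 and Kif20a passed 2-fold over S-phase. Gas2l3, which links actin and microtubules, was at 1.16 CPM in non-cycling, 12.7 CPM in S-phase and 37.0 CPM in G2/M MuSCs, a G2/M over S-phase ratio of 1.54 (1.27 to 1.82). Kif20a, a kinesin of the midzone, was at 2.15, 31.4 and 70.8 CPM (1.17, 1.00 to 1.35). Kif23 and Racgap1 form the centralspindlin complex, and they had the largest and the smallest G2/M over non-cycling ratios of the role, 5.37 (4.88 to 5.91) and 4.2 (3.94 to 4.47), with 81.5 and 136 CPM in G2/M MuSCs. Prc1, which bundles the midzone, Ect2, which activates RhoA, and Anln, a ring scaffold, differed from S-phase by 0.37, 0.48 and 0.18.

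**Figure D2:**
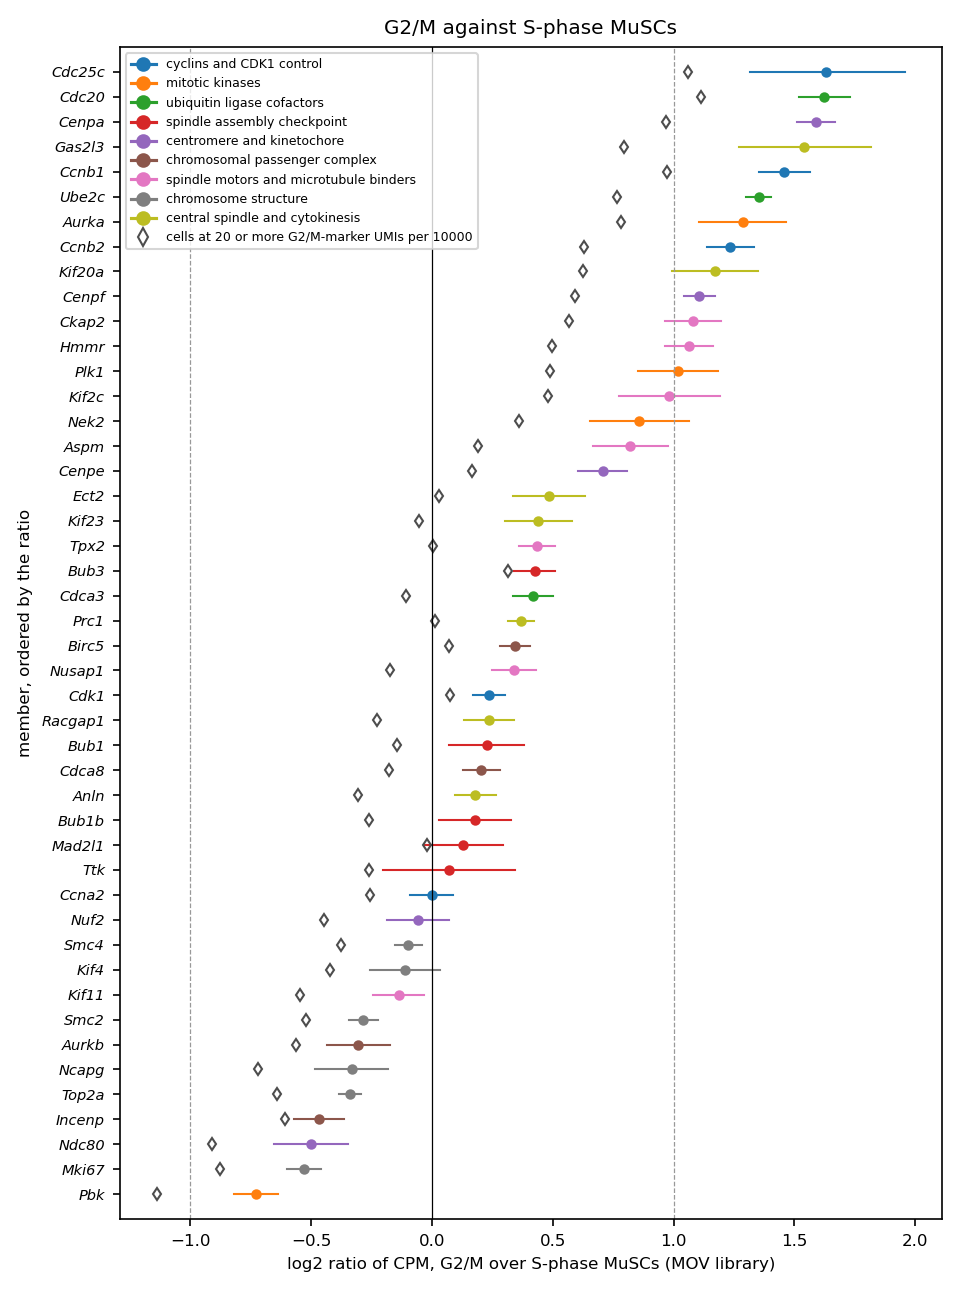
Log2 ratio of CPM for G2/M over S-phase MuSCs of the MOV library for each of the 46 genes (points with 95% counting intervals, colored by role), and the same ratio among cells with 20 or more G2/M-marker UMIs per 10000 (open diamonds). The 13 genes at the top lie beyond the dashed 2-fold line, and most diamonds lie to the left of their points.

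The G2/M over S-phase ratio moved with the level of the G2/M markers used to set the groups. When both groups were held to 20 or more marker UMIs per 10000, a comparison added after the data were seen, 235 G2/M cells (median 29.4) were set against 123 S-phase cells (median 27.7). There the median log2 ratio over the 46 genes was -0.01, only Cdc20 (1.11) and Cdc25c (1.06) stayed 2-fold higher in G2/M, where 3.28% of 11377 genes did, Pbk was 2-fold lower (-1.14), where 3.23% did, and 23 genes lay below 0. Cenpa and Ccnb1 followed these 2 at the top with 0.97 each, and Pbk, Ndc80 and Mki67 had the lowest ratios in both versions of the comparison.

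Split further by those markers, the summed level was 3433 CPM in the 53 S-phase MuSCs under 12 marker UMIs per 10000, 5523 CPM in the 100 from 12 to 20 and 9605 CPM in the 123 at 20 or more. In G2/M MuSCs it was 5614 CPM in 62 cells from 12 to 20, 8226 CPM in 126 cells from 20 to 30 and 12482 CPM in 109 cells at 30 or more. In S-phase cells with few markers, Mki67 (150 CPM), Pbk (109 CPM) and Top2a (406 CPM) were already well above their non-cycling levels, whereas Cdc20 (36.1 CPM), Ccnb1 (30.9 CPM) and Cdc25c (3.91 CPM) were still far below their G2/M levels. Of the 46 genes, 34 had their highest level in the G2/M cells at 30 or more markers. The other 12 had it in the S-phase cells at 20 or more, namely Ccna2, Pbk, Ndc80, Nuf2, Aurkb, Incenp, Kif11, Mki67, Top2a, Smc2, Smc4 and Ncapg.

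**Figure D3:**
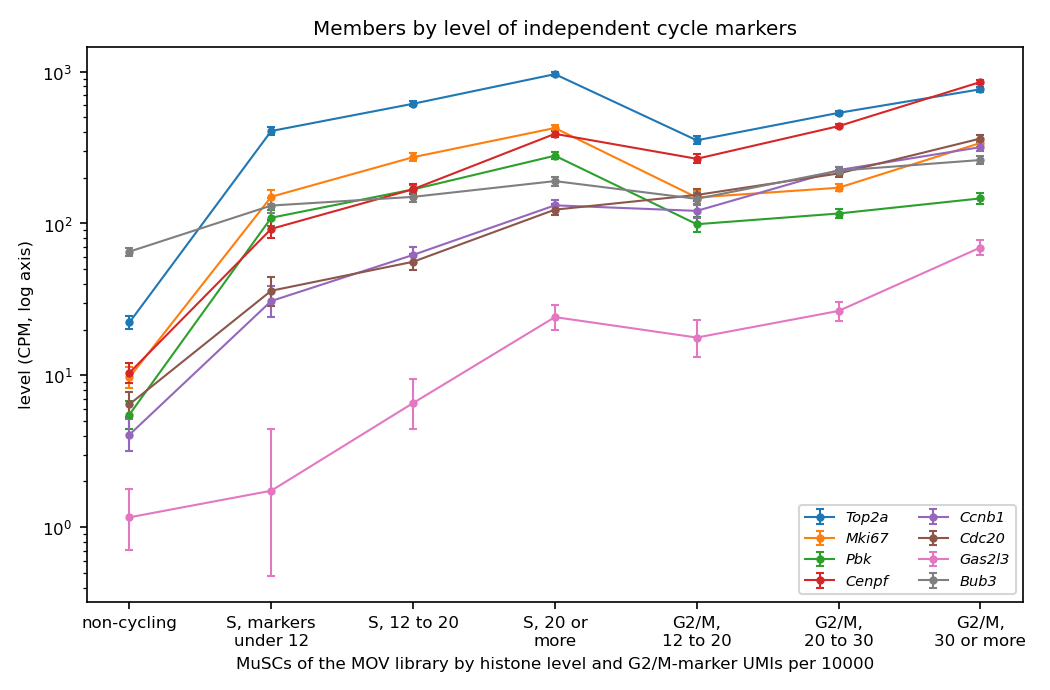
Level (CPM, log axis) of 8 of the genes in MuSCs of the MOV library, ordered by histone level and by UMIs of G2/M markers per 10000 (error bars, 95% counting intervals). Top2a, Mki67 and Pbk peak in S-phase cells with 20 or more markers, Ccnb1, Cdc20 and Gas2l3 in G2/M cells with 30 or more, and Bub3 spans the smallest range. S-phase cells were not split at 30 markers.

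All 46 genes were detected in MOV non-cycling MuSCs, and 38 in sham ones. Bub3, Smc4 and Smc2 led with 13.9%, 11.3% and 9.75% of their UMIs in MOV non-cycling MuSCs, and with 18.9%, 11.8% and 6.81% in sham ones. After each cell was thinned to 2000 UMIs, 8.76% (6.93 to 10.9) of MOV non-cycling MuSCs (median depth 17306 UMIs before thinning) held 3 or more UMIs of these genes, against 97.8% of S-phase and 99.3% of G2/M MuSCs (35451 and 40381 UMIs). Fibre droplets of the sham library (434 droplets, 4532.5 UMIs), which come from post-mitotic fibres, served as background. Of these, 0 of the 351 that were deep enough held 3 or more, with an interval up to 1.05%. In the MOV library, fibre droplets were few, and 1 of 10 (10%, 0.253 to 44.5) held 3 or more. That interval spans the share of MOV non-cycling MuSCs, so the background within that library cannot be placed above or below it. Unthinned, the shares were 71.5% of MOV non-cycling MuSCs and 3.00% of the sham droplets. Their summed level was 52.9 CPM (45.0 to 61.8), of which Bub3 made up 60.4% and Aurka 20.1%. Aurka was thus at 10.6 CPM in fibre droplets (32 UMIs) and at 0 UMIs in the 102 sham non-cycling MuSCs.

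**Figure D4:**
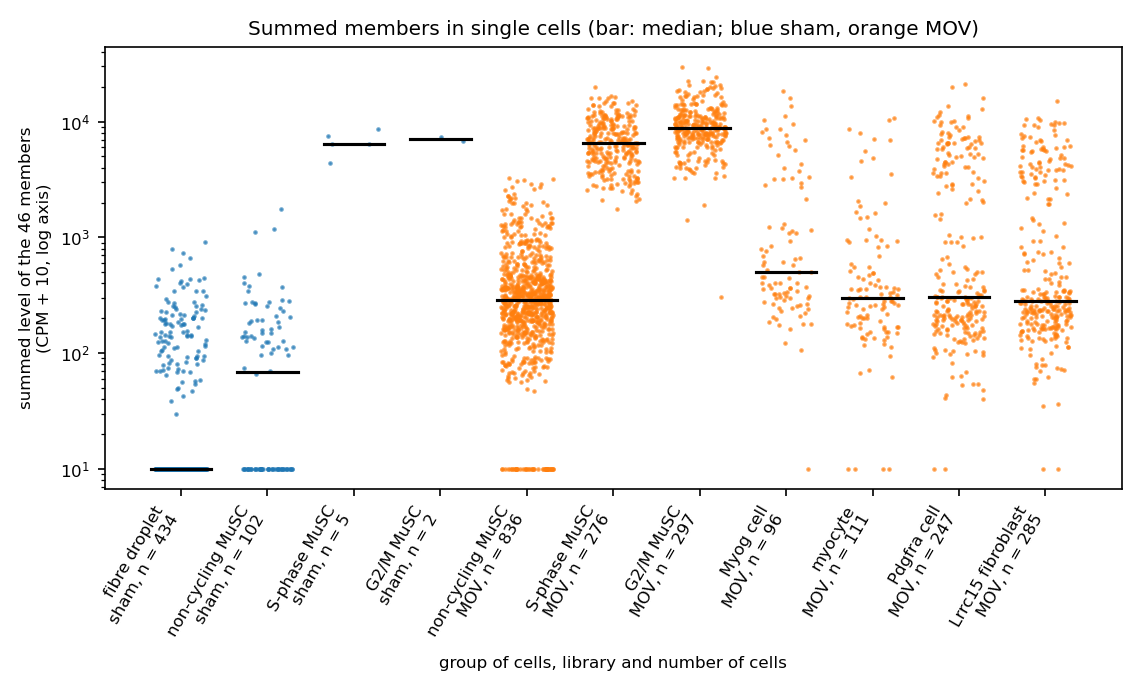
Summed level of the 46 genes in single cells (CPM + 10, log axis) by group and library, with the median as a bar, sham in blue and MOV in orange. MOV non-cycling MuSCs lie mostly below the S-phase and G2/M MuSCs, while Myog cells, myocytes, Pdgfra cells and Lrrc15 fibroblasts each hold a lower mass of cells and a separate upper set.

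Committed cells carried lower levels than cycling MuSCs. The summed level was 2916 CPM (2866 to 2967) in 96 Myog cells and 1191 CPM (1161 to 1222) in 111 myocytes, the latter with embryonic and slow sarcomere transcripts. Against G2/M MuSCs, 44 of the 46 genes were lower in Myog cells (5.49% of all genes tested were), all but Pbk (-0.99) and Bub3 (-0.97), and all 46 were lower in myocytes (14% of all genes tested were, and 9.41% were higher). Against non-cycling MuSCs, 45 were higher in Myog cells (7.05% of all genes tested were, and 9.89% were lower), all but Bub3 at 0.77, and 37 in myocytes (10.2% of all genes tested), or 14 with the cycling limits doubled. The 9 that did not reach 2-fold in myocytes were Ccnb2, Cdca3, Bub3, Mad2l1, Ttk, Ckap2, Smc2, Smc4 and Gas2l3, at 0.10 to 0.82. Mki67 was at 80.4 CPM in Myog cells and 30.8 CPM in myocytes, Top2a at 207 and 102 CPM, Cdk1 at 113 and 48.4 CPM, and Ube2c at 256 and 94.3 CPM, each between its levels in non-cycling and G2/M MuSCs. A median Myog cell held 492 CPM and a cell at the 90th percentile 7483 CPM.

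A minority of cells carried these sums. By the same marker limits that set the MuSC groups, 24 of 96 Myog cells (25.0%, 16.7 to 34.9) and 11 of 111 myocytes (9.91%, 5.05 to 17.0) were in S-phase or G2/M, against 573 of 1458 MuSCs (39.3%, 36.8 to 41.9). Split in this way after the data were seen, the 14 Myog cells with G2/M markers reached 7670 CPM, the 10 with S-phase markers 6502 CPM and the 68 with non-cycling markers 538 CPM (511 to 567). In myocytes the corresponding sums were 7800 CPM (5 cells), 5400 CPM (6 cells) and 357 CPM (92 cells, 338 to 376). Cells that also met stromal, fibre or other non-myogenic markers had been left out as mixed. That filter took MuSC, Myog-cell and myocyte markers as a single type. It could not leave out a doublet of a cycling MuSC with a Myog cell or myocyte. No doublet caller was run, so the part of doublets in the cycling Myog cells and myocytes was not tested.

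In Myog cells with G2/M markers, Gas2l3 alone was lower than in G2/M MuSCs (log2 -1.29, with 10.4% of all genes lower) and none was higher (3.46% of all genes). Mki67 was at 215 CPM in both groups to 3 digits, Top2a at 555 against 563 CPM and Aurka at 75.6 against 72.9 CPM. Few of the genes differed between Myog cells with non-cycling markers and non-cycling MuSCs, at shares not far from those of all genes. Of 45 genes with enough UMIs, 2 were higher (5.37% of all genes), Aurka with 2.68 and Bub1 with 1.01, and 6 were lower (9.72% of all genes), Aurkb, Kif11, Mki67, Kif23, Nusap1 and Nuf2, from -2.18 to -1.07. In myocytes with non-cycling markers, 1 of 44 was higher (9.88% of all genes), again Aurka at 2.21, and 8 were lower (18.5% of all genes), led by Kif20a at -1.53. Aurka was at 4.47 CPM in such Myog cells and 3.23 CPM in such myocytes, against 0.697 CPM in non-cycling MuSCs. Markers of fibres, in whose droplets Aurka was also found, were at 14742 CPM in all myocytes, 1328 CPM in all Myog cells and 582 CPM in non-cycling MuSCs, and their part in the Aurka values was not tested.

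**Figure D5:**
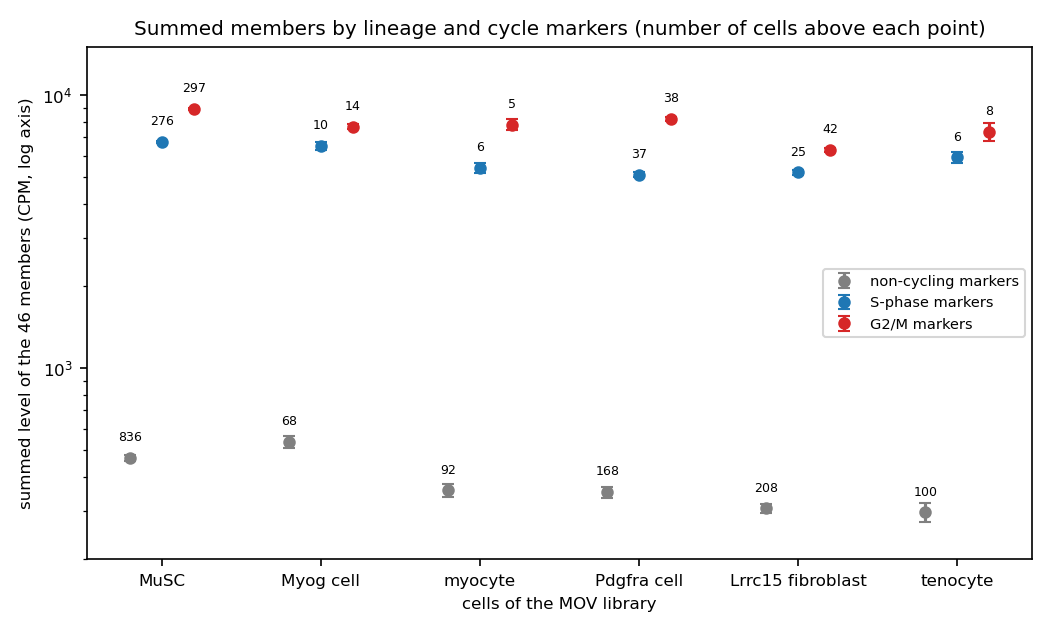
Summed level of the 46 genes (CPM, log axis) in MuSCs, Myog cells, myocytes, Pdgfra cells, Lrrc15 fibroblasts and tenocytes of the MOV library, split by non-cycling, S-phase and G2/M markers (95% counting intervals, with the number of cells above each point). Non-cycling cells lie between 297 and 538 CPM, and cells with S-phase or G2/M markers between 5111 and 8903 CPM.

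Cells outside the myogenic lineage expressed the same genes. The summed level was 2555 CPM (2520 to 2590) in 247 Pdgfra cells, a group with the markers of fibro-adipogenic progenitors, and 2097 CPM (2071 to 2123) in 285 Lrrc15 fibroblasts. Of the 46, 45 were higher in Pdgfra cells than in non-cycling MuSCs (19.3% of all genes tested were), and 43 in Lrrc15 fibroblasts (17.9% of all genes). Against G2/M MuSCs, 44 were lower in Pdgfra cells (17.2% of all genes were, and 21.9% were higher), all but Gas2l3 and Mad2l1, and 45 in Lrrc15 fibroblasts (18.9% of all genes were, and 19.9% were higher), all but Gas2l3. Between Lrrc15 fibroblasts and Pdgfra cells no gene of the 46 was called (3.24% of all genes were higher and 6.54% lower), with log2 ratios from -0.85 to 0.19.

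The Pdgfra cells with S-phase or G2/M markers made up 75 of 247 (30.4%, 24.7 to 36.5) and the Lrrc15 fibroblasts 67 of 285 (23.5%, 18.7 to 28.9). The 38 Pdgfra cells with G2/M markers held 8173 CPM, and none of the 46 genes differed by 2-fold from G2/M MuSCs (19.2% of all genes were higher and 14.5% lower). The 42 Lrrc15 fibroblasts with G2/M markers held 6289 CPM, and 4 genes were lower than in G2/M MuSCs (16.6% of all genes), Bub1b at -1.39, Ect2 at -1.25, Cenpf at -1.22 and Ckap2 at -1.18, with none higher (16% of all genes). Cells with non-cycling markers held 352 CPM (168 Pdgfra cells) and 307 CPM (208 Lrrc15 fibroblasts).

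Gas2l3 was also found outside the cycle in these cells. It was at 28.6 CPM in Pdgfra cells and 28.9 CPM in Lrrc15 fibroblasts, near the 37.0 CPM of G2/M MuSCs. Among cells with non-cycling markers it was at 17.8 CPM in Pdgfra cells, 22.1 CPM in Lrrc15 fibroblasts and 14.9 CPM in tenocytes, against 1.16 CPM in non-cycling MuSCs and 0.745 CPM in Myog cells. Mki67, by comparison, was at 8.22, 4.48, 7.2, 9.69 and 3.35 CPM in the same order. Gas2l3 was named here for its levels after they were seen.

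Between the libraries, the summed level over all kept cells was 579 CPM (559 to 599) in sham and 3529 CPM (3516 to 3541) in MOV. All 46 genes were higher in MOV, where 23.2% of 15304 genes were called higher, with log2 ratios from 1.16 for Bub3 to 4.11 for Cdc25c. The libraries held different cells, since 434 of the 675 sham cells were fibre droplets and 13 of the 2854 MOV cells were. Within MuSCs, 7 of 117 sham cells (5.98%, 2.44 to 11.9) were in S-phase or G2/M, against 573 of 1458 MOV cells (39.3%). The sham share was 15.4% with the cycling limits halved and 12.5% at a mitochondrial limit of 5%. Over all MuSCs, 38 of the 46 were higher in MOV (12.8% of 13026 genes) and none was lower (9.68% of them). Mki67 was at 63.5 CPM in sham and 155 CPM in MOV MuSCs, Top2a at 165 and 378 CPM, Cdk1 at 71.1 and 184 CPM, and Ube2c at 103 and 402 CPM. The 8 genes short of 2-fold were Bub3, Mad2l1, Kif11, Ncapg, Ect2, Aurkb, Ccnb1 and Smc4, at 0.62 to 1.00.

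The 5 sham S-phase MuSCs together held 6351 CPM (5985 to 6733) and the 2 sham G2/M MuSCs 7091 CPM (6691 to 7508), levels of the same order as in MOV. Of these 7 cells, 4 carried a barcode also present in the MOV library, with 32146 to 103126 UMIs in sham and 562 to 2057 UMIs in MOV. The other 3 held 6420 and 8609 CPM (S-phase) and 6758 CPM (G2/M), so that sham cells without a shared barcode also reached these levels.

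In non-cycling MuSCs the summed level was 307 CPM (274 to 342) in 102 sham cells (median 7914.5 UMIs) and 469 CPM in MOV. The groups were not alike in other genes, with Myod1 at 719 CPM in sham and 118 CPM in MOV. Cdkn1c was at 25.6 and 172 CPM, whereas Myf5 was at 194 and 206 CPM. No UMI of the 46 genes was found in 50 of the sham cells (49.0%) and in 48 of the 836 MOV cells (5.74%), at these unequal depths. After thinning to 2000 UMIs, 1.98% (0.241 to 6.97) of sham and 8.76% (6.93 to 10.9) of MOV cells held 3 or more. Of the 44 genes with enough UMIs, 15 were higher in MOV (15.9% of 11653 genes) and 4 were lower (8.5%), with a median log2 ratio of 0.56 against 0.21 over all genes tested. Cenpf had the largest ratio at 3.45 (0.96 to 8.76), from 1 UMI in sham, followed by Prc1 at 2.24 from 5 UMIs and Cdk1 at 2.08 from 4 UMIs. Cenpe, Kif2c, Aspm and Ncapg were lower in MOV, at -1.5 to -1.29, and the interval of Kif2c, with 3 sham UMIs, ran from -3.22 to 0.96.

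That comparison rested on few sham UMIs. A single sham cell held 137 of the 323 UMIs of these genes in sham non-cycling MuSCs (42.4%), and 10 of the genes were found in that cell alone. Without it, the sham sum was 191 CPM, and 20 genes were higher and 2 lower in MOV. The cell was picked for its UMIs of these genes, and no MOV cell was removed. A lower sham sum was therefore fixed by the choice, and the shift in counts shows only how much that cell weighed. Without the shared barcodes, 21 were higher and 1 was lower. That removal took out 5 sham non-cycling MuSCs, among them the same cell (78165 UMIs), and 0 MOV ones. It was therefore not a separate check. At a mitochondrial limit of 5% the balance turned, with 6 higher and 11 lower in MOV. Shares over all genes were not computed at these settings, so the shifts cannot be read as particular to these genes. In sham, 8 of the 46 genes had no UMI in non-cycling MuSCs, namely Ccna2, Cdc25c, Aurka, Plk1, Nek2, Aurkb, Nusap1 and Gas2l3. Ccna2 was then at least 1.90-fold higher in MOV, taking 3 counts for the sham group, and for the other 7 the sham depth set no bound above equality.

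Other genes of mitosis, from lists that hold none of the 46, were counted in the same way in the MOV library. Beside the counts that follow, 7.05% of all genes tested were higher in G2/M than in non-cycling MuSCs and 7.93% were lower. Of 30 other kinetochore genes, 23 were higher in G2/M than in non-cycling MuSCs, led by the outer kinetochore scaffold Knl1 (5.04) and by Spdl1 (3.81), which brings dynein to kinetochores. Of 17 genes of the anaphase-promoting complex and its regulators, 4 were, led by its inhibitor Fbxo5 (3.91) and the conjugating enzyme Ube2s (2.05), and the median of 0.46 lay well under that of Ube2c and Cdc20. Of 16 other condensin and cohesin genes, 8 were, led by Esco2 (4.74) and Cdca5 (4.00), which establish and protect cohesion. Of 30 upstream regulators of the cycle, 14 were, led by the kinase Mastl (3.38) and the transcription factor Foxm1 (3.11). None of the 14 abscission and cortex genes tested was called, with Tsg101 (0.35) and Chmp3 (0.21) highest.

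All 26 genes of DNA replication were higher in S-phase than in non-cycling MuSCs (7.67% of all genes tested were). In G2/M, 18 were (7.05% of all genes), led by thymidine kinase Tk1 (2.56). Between G2/M and S-phase, 8 of the 26 were lower in G2/M (2.85% of all genes were), whereas none of the 46 mitotic genes was. Of 7 CDK inhibitors, 2 were higher in G2/M than in non-cycling MuSCs (7.05% of all genes were), Cdkn2d (1.51) and Cdkn2c (1.31). Cdkn1c was at -0.74 in G2/M MuSCs, 2.81 in Myog cells and 4.30 in myocytes relative to non-cycling MuSCs. Among these 3 groups that is the reverse of the order of the summed mitotic genes, but other MuSC groups broke this order. Non-cycling MuSCs had a lower sum (469 CPM) than all 3, with Cdkn1c at only 172 CPM. S-phase MuSCs had a lower sum (6744 CPM) than G2/M MuSCs (8903 CPM) and also less Cdkn1c (65.2 against 103 CPM).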

How the data were processed

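Sorted plantaris cells were profiled in 1 sham and 1 MOV library (10x Genomics, 3′ chemistry). The authors deposited filtered matrices, in which UMI counts are given for each gene in each cell as whole numbers with no scaling, and the submitters' processing notes name Cell Ranger 6.0.0, R 4.0.2, Seurat 4.0.2 and the build mm10. The 46 genes, the marker lists and the comparison lists were chosen with earlier results of these data known.

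Cells with under 10% mitochondrial UMIs and at least 1000 UMIs were assigned to groups by the share of their UMIs taken by marker lists that hold none of the 46 genes. Per 10000 UMIs, S-phase cells had 16 or more histone UMIs, whatever their level of G2/M markers. On the same scale, G2/M cells had fewer histone UMIs but 12 or more UMIs of G2/M markers. Non-cycling cells had under 4 histone UMIs and under 8 of G2/M markers. Cells that met the markers of 2 unrelated types (myogenic, stromal, fibre or other) were left out as mixed, and no doublet caller was run. UMIs were summed per group and scaled to CPM, with exact Poisson intervals, exact conditional intervals for ratios and Clopper-Pearson intervals for shares. Groups with no UMI were taken at 3 counts, as a bound. Values were given for Mki67, Top2a, Cdk1, Ccna2 and Ube2c, for the members with the largest and smallest G2/M over non-cycling ratio of each role, and for the extremes of the G2/M over S-phase ratio and of the level outside the cycle. The other members are described by role, and the 2 highest genes of each comparison list are named, save for an item that is not reported here.

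Alternatives were other mitochondrial, depth and cycling limits, other scalings including TMM factors (edgeR 4.0.16 in R 4.3.3), means of single-cell CPM, other thinning depths and another seed. Added after seeing the data were the removal of shared barcodes and of 1 sham cell, a comparison at matched G2/M markers and the split of lineages by phase. The sham cell was picked as the non-cycling MuSC with the most UMIs of the 46 genes, and its barcode was itself shared. The calls were tested on simulated data for G2/M against non-cycling MuSCs over 12365 genes with 200 changed, where 93.7% of the genes changed by 1.5 (log2) and 100% of those changed by 2 were called, and 0.880% of unchanged genes were. For non-cycling MuSCs, MOV against sham, over 11513 genes, 88.3% and 96.9% were called, and 6.45% of unchanged genes were. The simulated sums held counting error only, with no spread between cells, so these rates do not cover calls that rest on 1 or few cells. Python 3.11.15, numpy 2.4.6, scipy 1.17.1, pandas 2.3.3 and matplotlib 3.10.9 were used. Promoters came from RefSeq (GRCm38.p6), where 38 of the 46 symbols matched. Anln overlaps Gm48646 on the same strand, so that their reads may be shared.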

Additional observations from a re-analysis of the deposited data

Results flagged for a closer look

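Groups of cells whose libraries were not compared above also held UMIs of the 46 genes, at a higher summed level in MOV than in sham. The summed level was 1291 CPM (1248 to 1336) in 117 MOV tenocytes, against 129 CPM (77.6 to 201) in 14 sham tenocytes. It was 1357 CPM (1306 to 1409) in 179 MOV immune, endothelial, mural, glial and erythroid cells, against 225 CPM (175 to 285) in 38 sham cells of these types together. These groups held different cells, since erythroid markers were at 302698 CPM in the sham group and at 5130.3 CPM in the MOV group. In cells that met no marker list it was 2891 CPM (2832 to 2950) in 180 MOV cells, against 947 CPM (814 to 1095) in 20 sham cells, whose median cell held 0 CPM and whose 90th percentile was 201 CPM, so that few cells carried the sham sum. With 1 library per condition these differences have no replicate check.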

How the results depend on the processing

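The counts of all 46 genes in G2/M and in S-phase MuSCs over non-cycling MuSCs, and over all cells in MOV, kept within 1.5 times under every alternative run. The 13 genes higher in G2/M than S-phase became 7 with the cycling limits halved and 2 at 20 or more G2/M markers, where the lower count went from 0 to 1. The 37 higher in myocytes became 14 with the limits doubled, and the 38 higher in all MOV MuSCs 22 at a mitochondrial limit of 5%. In non-cycling MuSCs, the 15 higher in MOV became 6 (5% limit), 27 (limits doubled) and 31 (mean of single-cell CPM), and the 4 lower became 11 (5% limit), 0 (limits doubled), 2 (without 1 sham cell) and 1 (top 2% of UMIs left out, limits halved, mean of single-cell CPM, or no shared barcodes). The share of MOV MuSCs in S-phase or G2/M went from 39.3% to 46.2% (limits halved) and 27.3% (doubled), and that of sham from 5.98% to 15.4% (halved) and 12.5% (5% limit). The shares of cells with 3 or more UMIs rested on depth. Without thinning they were 100% in S-phase and G2/M MuSCs, 96.9% in Myog cells, 91.9% in Lrrc15 fibroblasts, 87.0% in Pdgfra cells, 83.8% in myocytes, 71.5% and 11.8% in MOV and sham non-cycling MuSCs and 3.00% in sham fibre droplets, and at 4000 UMIs 100% in S-phase MuSCs, 38.0% in Lrrc15 fibroblasts and 20.2% in MOV non-cycling MuSCs. The causes were not tested. Of the alternatives, only the comparison at 20 or more G2/M markers had the share of all genes called computed beside it. Of the ratios of single named genes, 130 of 575 moved beyond their intervals, and no ratio of 2-fold or more changed sign. Smaller G2/M over S-phase ratios did. At 20 or more G2/M markers, those of Cdca3, Nusap1, Bub1b, Racgap1 and Kif23 went from above 0 to below 0, as did that of Bub1b with the limits halved. Outside the genes followed under every alternative, Anln, Cdca8, Bub1, Ttk and Mad2l1 also went below 0 at 20 or more G2/M markers. Ccna2 and Kif4 went above 0 with the limits doubled or the top 2% of UMIs left out. The ratio of Ccna2, near 0, also crossed it with TMM factors, with a higher minimum of UMIs per cell and without shared barcodes.

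No paired analysis was possible because each condition has 1 library, and for the same reason no replicate was left out. The sham library is shallow, and genes with under 20 UMIs in the groups together were not called.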
